A study of Mus musculus with 9 samples.

Results

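The genes described here are the *Cdkn2a* locus and the regulators that act with it at the G1 phase of the cell cycle. They are the rows of 10 gene symbols, chosen by name, among the 22972 listed for every library. *Cdkn2a*, its neighbours *Cdkn2b* and *Mtap*, the inhibitors *Cdkn2c* and *Cdkn1b*, the cyclins *Ccnd1* and *Ccnd3*, the kinases *Cdk4* and *Cdk6*, and *Rb1* were all found, and 7 of the 10 reached the mean of 1 FPKM (fragments scaled by the gene's length and by the library's mapped fragments) that was required for the fit across genes. The libraries were made from B16 cells, an established mouse melanoma line of WT genotype according to the labels, grown in DMEM with fetal bovine serum on a flexible PDMS film and collected at day 3. There were 3 CTL libraries from untreated cells, 3 MS libraries from cells under cyclic straining for 72 h, and 3 libraries from cells given blebbistatin, an inhibitor of non-muscle myosin II, at 100 ng/mL for 72 h. The labels of the last group name the inhibitor alone while the study describes straining with blebbistatin, so the group is called Blebb. here and whether its cells were strained is not settled by the labels. The libraries of each group are labelled as parallel experiments of 1 cell line, nothing states that they came from separate cultures, and the p-values measure only the spread between these samples. The comparison of MS with CTL asks what straining changed. What the comparison of Blebb. with MS asks depends on that point, since the groups differ in blebbistatin and, if the labels are complete, in straining as well.

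In a dividing cell, D-type cyclins bind the kinases CDK4 and CDK6, and the active pairs phosphorylate the retinoblastoma protein, which releases E2F factors that drive the genes of S phase. The INK4 proteins (encoded by *Cdkn2a*, *Cdkn2b*, *Cdkn2c* and *Cdkn2d*) bind CDK4 and CDK6 and block this step, and the Cip/Kip proteins (*Cdkn1a*, *Cdkn1b* and *Cdkn1c*) act on cyclin-kinase complexes more widely. *Cdkn2a* also encodes ARF, which is read in another frame from its own first exon and restrains MDM2, the ligase that degrades p53. The locus is lost or silenced in many melanomas, and *Mtap*, a methionine salvage enzyme gene next to it, is often lost with it in human tumors.

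On GRCm38, *Cdkn2a* lies on the minus strand of chromosome 4 at chr4:89274471-89294653. Its 2 transcripts in GENCODE M21 share exon 2 at chr4:89276645-89276985 and begin at separate first exons, chr4:89281986-89282192 for p16INK4a and chr4:89294334-89294653 for ARF. *Cdkn2b* follows at chr4:89306299-89311039 on the same strand, 11.6 kb away, and *Mtap* lies at chr4:89137122-89181081 on the plus strand, 93.4 kb from *Cdkn2a* on the other side. The longest run of bases that a *Cdkn2a* and a *Cdkn2b* transcript have in common is shown because near-identical stretches can divide reads between genes. It is 23 bases long, in coding exon 2 of both genes (chr4:89276855-89276877 and chr4:89307184-89307206), and the other pairs of INK4 genes share at most 16 bases.
Cdkn2a and Cdkn2b: cgggaaggcttcctggacacgct
The RefSeq sequences upstream of the 3 starts of *Cdkn2a* and *Cdkn2b*, the pair listed at 0 in all libraries, are shown next, in capitals at each CG, the dinucleotide that carries DNA methylation. They end where GENCODE places the first exon.
Cdkn2a, p16INK4a start, chr4:89282193-89282442, minus strand: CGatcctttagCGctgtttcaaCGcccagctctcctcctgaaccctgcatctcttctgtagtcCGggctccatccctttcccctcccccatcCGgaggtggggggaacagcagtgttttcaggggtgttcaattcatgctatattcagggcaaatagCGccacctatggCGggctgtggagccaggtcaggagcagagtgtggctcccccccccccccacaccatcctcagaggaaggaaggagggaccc
Cdkn2a, ARF start, chr4:89294654-89294869, minus strand: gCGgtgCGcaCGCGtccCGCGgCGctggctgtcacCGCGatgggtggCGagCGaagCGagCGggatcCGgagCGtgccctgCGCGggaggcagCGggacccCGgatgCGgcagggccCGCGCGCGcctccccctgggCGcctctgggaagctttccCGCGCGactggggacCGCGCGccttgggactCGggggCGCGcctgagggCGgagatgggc
Cdkn2b, chr4:89311040-89311282, minus strand: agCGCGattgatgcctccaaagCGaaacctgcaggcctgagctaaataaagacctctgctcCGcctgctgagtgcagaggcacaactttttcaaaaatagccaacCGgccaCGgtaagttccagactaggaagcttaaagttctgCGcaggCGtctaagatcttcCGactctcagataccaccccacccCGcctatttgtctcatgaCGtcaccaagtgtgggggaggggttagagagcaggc
The ARF stretch holds 35 CG in 216 bases, against 7 in 250 bases at the p16INK4a start and 11 in 243 bases at *Cdkn2b*. In the full RefSeq windows of 250 bases the counts were 40, 7 and 12, where the median of 32851 mouse promoter windows is 6, and 1.31% of all windows had at least as many as the ARF window. The windows of the members with RNA held 6 and 29 CG (*Cdkn2c*), 28 (*Cdkn1b*), 22 (*Cdk6*), 11 and 19 (*Ccnd3*), 13 (*Cdk4*) and 11 (*Mtap*). Some of these full windows overlap exons that GENCODE gives to the same gene. The bases before the first such exon were 0 in both *Cdkn2c* windows, 2 for *Mtap*, 89 for *Cdk6* and 219 to 250 in the others. DNA methylation was not measured in these samples. Windows were found for 8 of the 10 genes, and none for *Ccnd1* and *Rb1*.

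A sequence of the gene at the highest level, *Cdk4*, is given for its repeated E-box, in capitals, the CACGTG that MYC and MAX can bind and that reads the same on both strands.
Cdk4, chr10:127063285-127063533, plus strand: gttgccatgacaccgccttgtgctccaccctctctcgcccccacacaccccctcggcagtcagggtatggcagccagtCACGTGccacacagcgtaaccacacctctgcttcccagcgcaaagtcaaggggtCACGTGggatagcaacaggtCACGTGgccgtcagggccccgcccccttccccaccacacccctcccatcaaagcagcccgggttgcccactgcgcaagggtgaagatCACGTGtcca
This stretch carries CACGTG 4 times. The motif occurs at least once in 6.02% of the 32851 windows, and 7 windows (0.0213%) hold 4 or more. Binding was not measured, so the match is a description of the sequence.

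Before the levels are compared, the spread between the libraries must be described, since 2 of them stood apart from the rest. On the first principal component, which held 70.4% of the variance, Blebb. replicate 2 and CTL replicate 1 had scores of -43.9 and -42.1, MS replicate 3 had the next lowest score at -10.0, close to Blebb. replicate 1 at -7.29, and the others reached up to 35.8. With the GC trend removed, the scores were -34.2, -35.0 and -17.2 for the first 3, and all others were above 0. These 3 are called the lowest-scoring libraries here, 1 in each group. The libraries also differed in how the deviation of log2(FPKM + 1) from each gene's mean over the 9 libraries followed the gene's GC content. Across genes, r of this deviation with GC content ran from -0.64 in MS replicate 1 to 0.55 in Blebb. replicate 1. The columns summed to between 439939 and 484093 FPKM, no 2 columns held identical values, and the number of reads is unknown. The libraries had the melanocyte lineage genes they should have. All 8 markers, *Pmel* and *Tyr* among them, had a mean of at least 1 FPKM, with sums from 7640 to 13445 FPKM per library (8561 to 13445 in CTL, 7640 to 12384 in MS and 8400 to 12206 in Blebb.). Markers of other cells were at or near 0, with 0 of 6 fibroblast markers (sums from 0.184 to 0.567 FPKM, *Dcn* and *Lum* at 0), 0 of 6 keratinocyte markers (sums from 0 to 0.055) and 1 of 6 macrophage markers, *Cd68*, at that mean (sums from 2.10 to 4.32, *Ptprc* at 0). As in any bulk RNA sample, a smaller number of cells and less RNA per cell cannot be told apart.

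*Cdkn2a* was listed at 0 FPKM in all 3 CTL, all 3 MS and all 3 Blebb. libraries. *Cdkn2b*, the INK4 inhibitor that TGF-beta signaling can induce, was likewise listed at 0 in all 9. Neither straining nor blebbistatin was accompanied by a value above 0 for either gene, and no test or fold was computed. None of 24 genes that every cell uses, such as *Actb* and *Tbp*, was listed at 0 in any library, the lowest of their values being 2.72 FPKM. Over all genes, values down to 7e-06 FPKM were listed. Neither value is a limit of detection, because the number of reads is unknown. An entry of 0 was common, with 6489 genes at 0 in all 9 libraries. It gives no information on whether the locus is present in the DNA of these cells.

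*Mtap*, the neighbour on the other side, had RNA in every library. It was at 36.8, 61.9 and 75.9 FPKM in CTL replicates 1 to 3, at 76.4, 57.2 and 47.0 FPKM in MS and at 65.4, 38.6 and 75.2 FPKM in Blebb. Each group spanned nearly the same range, and the group means were 58.2 ± 19.8 (SD, n = 3) in CTL, 60.2 ± 14.9 in MS and 59.8 ± 19.0 in Blebb. The largest of its 3 log2 fold changes was 0.080 (SE 0.32), for MS against CTL.

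Genes farther out on GRCm38, chosen by name, were looked up on both sides. On the *Mtap* side, *Klhl9*, an adaptor of a ubiquitin ligase 552 kb from *Cdkn2a*, was at 3.06 to 10.8 FPKM over the 9 libraries, *Focad*, a focal adhesion gene 863 kb away, at 5.60 to 7.30 FPKM, and *Mllt3*, a chromatin reader gene 1241 kb away, at 0.521 to 2.68 FPKM. *Hacd4*, a fatty acid elongation gene that overlaps the end of *Focad*, was at 0.045 to 0.148 FPKM, and the interferon gene *Ifnb1* was at 0 throughout. On the *Cdkn2b* side, *Dmrta1*, *Elavl2*, *Izumo3* and *Tek*, from 385 kb to 5445 kb away, were each at 0 in all 9 libraries. These include genes known for neuronal, germline and endothelial expression. Outside the stretch from *Focad* to *Elavl2* only the named genes were looked up, so an unbroken run of zeros is not shown. From *Focad* to *Elavl2* the files list 41 genes, of which 22 were at 0 in all libraries, 3 had a mean of at least 1 FPKM (*Focad*, *Klhl9* and *Mtap*) and 16 had a lower mean above 0. The 4 further annotated genes from *Mtap* to *Cdkn2a* (*Gm12606*, *Gm12607*, *Gm26490* and *Tgif2-ps1*) are not listed under these symbols and have no values here.

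**Figure D1:**
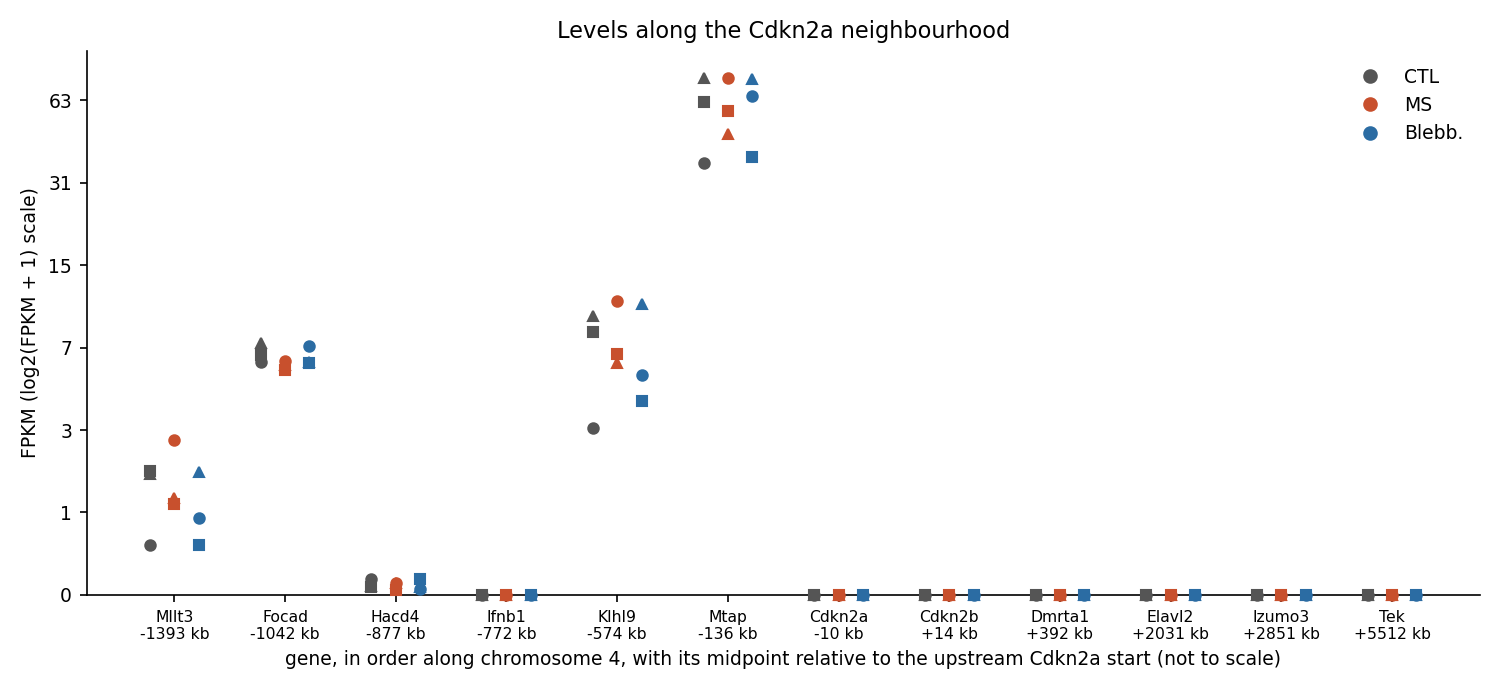
Levels of genes chosen by name around *Cdkn2a* in the 9 libraries, with FPKM on a log2(FPKM + 1) axis. Genes are in chromosome order (distance of the gene's midpoint from the ARF start in kb, not drawn to scale). Colors give the group, and circles, squares and triangles give replicates 1, 2 and 3. *Mtap* is at 36.8 to 76.4 FPKM in every library while *Cdkn2a*, *Cdkn2b* and the 4 genes shown after them are at 0.

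Of the other inhibitors of the pathway, *Cdkn2c*, *Cdkn1b*, *Cdkn1a* and *Cdkn2d* had RNA in every library, while *Cdkn1c* was at or near 0. *Cdkn2c*, which encodes the INK4 protein p18, was at 21.8, 30.7 and 30.8 FPKM in CTL, 23.9, 28.2 and 23.3 FPKM in MS and 31.6, 21.6 and 27.6 FPKM in Blebb. All 3 groups overlapped, and the means were 27.8 ± 5.18, 25.1 ± 2.69 and 26.9 ± 5.04 FPKM (SD, n = 3). *Cdkn1b*, which encodes the Cip/Kip protein p27, was at 17.4, 31.7 and 23.4 FPKM in CTL, 27.5, 24.3 and 20.6 FPKM in MS and 23.3, 22.8 and 26.8 FPKM in Blebb. Its group means, at 24.2 ± 7.16, 24.1 ± 3.44 and 24.3 ± 2.16 FPKM (SD, n = 3), lay closer together than the replicates of any group. *Cdkn1b* RNA does not report the protein, whose amount is set largely by translation and by SKP2-dependent degradation.

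FPKM is scaled by length, so that levels of different genes can be added. This scaling does not remove the differences in GC response between libraries, and their part in the shares given here and below was not tested. *Cdkn1a*, the p53 target that encodes p21, was the most abundant inhibitor with a mean of 178 FPKM over the 9 libraries and took 60.6% to 68.2% of the summed inhibitor RNA. *Cdkn2d* had a mean of 43.0 FPKM, and *Cdkn1c* had the lowest mean above 0, at 0.028 FPKM. With *Cdkn2a* and *Cdkn2b* at 0, the INK4 sum consisted of *Cdkn2c* (35.6% to 41.0%) and *Cdkn2d*.

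**Figure D2:**
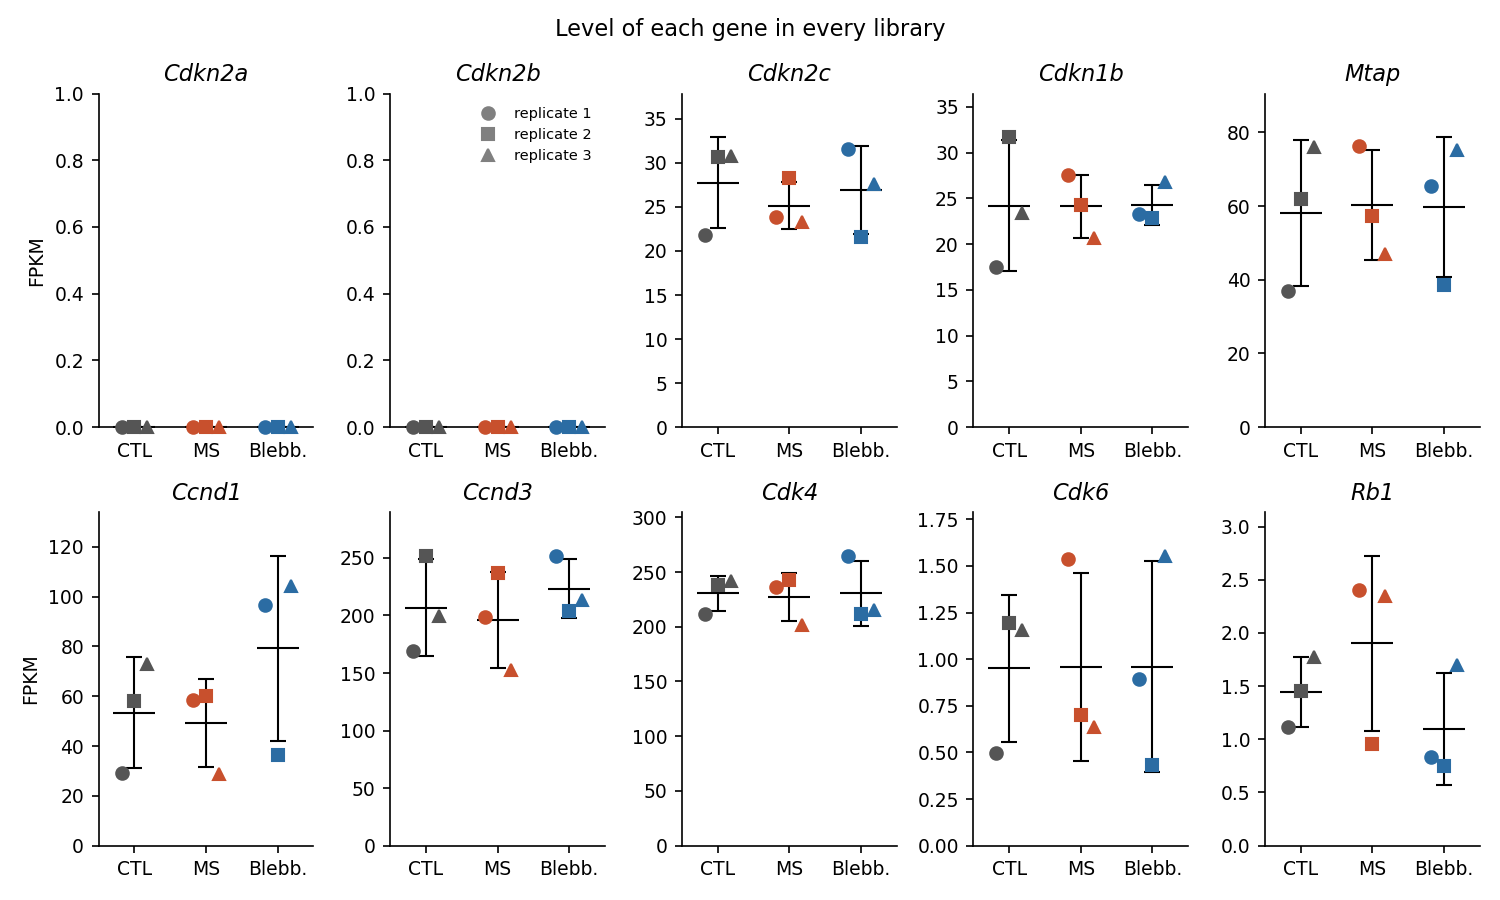
FPKM of the 10 genes in the 9 libraries by group (linear axes from 0, a separate scale for each gene). Symbols are libraries, with the shape giving the replicate, and bars are the mean and SD of 3 libraries. *Cdkn2a* and *Cdkn2b* are at 0 throughout, and for each of the other 8 genes the groups overlap.

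*Ccnd1* had the largest ratio of highest to lowest library among the 10 genes. This cyclin, a target of growth factor, adhesion and beta-catenin signaling, was at 29.0, 58.1 and 72.8 FPKM in CTL, at 58.6, 60.3 and 28.7 FPKM in MS, and at 96.8, 36.3 and 104.4 FPKM in Blebb. The highest pair of libraries were both from Blebb., but the remaining Blebb. library was below 4 of the other 6, so the groups overlapped in every comparison. Over the 9 libraries the highest value was 3.64 times the lowest. The group means were 53.3 ± 22.3 FPKM (SD, n = 3) in CTL, 49.2 ± 17.8 in MS and 79.2 ± 37.3 in Blebb. The log2 fold change was -0.090 for MS against CTL (SE 0.48, 95% confidence interval -1.18 to 1.00, adjusted p = 1.00), 0.61 for Blebb. against MS (interval -0.48 to 1.70, adjusted p = 0.897) and 0.52 for Blebb. against CTL (interval -0.57 to 1.60, adjusted p = 1.00), from limma, where p-values were adjusted by the Benjamini-Hochberg method across the fit. The intervals were the widest of the 7 members tested.

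The size of the *Ccnd1* change in Blebb. depended on which library was left out. Its log2 fold change stayed above 0 against both other groups in every fit. Without Blebb. replicate 2, the log2 fold change against MS was 1.09 and that against CTL 1.00, with unadjusted p of 0.030 and 0.042 (limma) and adjusted p of 1.00 in both, in fits where 61 and 18 of 10109 genes had an unadjusted p under 0.05. It was 0.27 against MS without MS replicate 3, and 0.14 against CTL without CTL replicate 1. With the 3 lowest-scoring libraries all left out, 2 libraries a group remained, and *Ccnd1* was at 58.1 and 72.8 FPKM in CTL, 58.6 and 60.3 in MS and 96.8 and 104.4 in Blebb. The log2 fold change of Blebb. was then 0.75 against MS and 0.62 against CTL. The libraries left out hold the lowest *Ccnd1* value of each group, so the spread within groups is smaller in this fit by construction, and its p-values are not read as a test of *Ccnd1*.

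*Ccnd3*, the D-type cyclin at the highest level here, was at 169, 252 and 199 FPKM in CTL, 199, 237 and 153 FPKM in MS and 252, 204 and 214 FPKM in Blebb. Its means of 207 ± 41.9, 196 ± 42.1 and 223 ± 25.5 FPKM (SD, n = 3) differed by less than the spread of the replicates, and the largest log2 fold change was 0.20 (SE 0.20), for Blebb. against MS. It was 0.036 without MS replicate 3, 0.35 without MS replicate 2 and 0.078 with GC trends removed. *Ccnd3* made up 53.8% to 70.8% of the summed RNA of the D-type cyclins, *Ccnd2* 12.7% to 30.3% and *Ccnd1* 11.0% to 26.3%. The *Ccnd1* share was 11.5%, 15.6% and 20.9% in CTL (SD 4.71, n = 3), 17.8%, 17.2% and 11.0% in MS (SD 3.74) and 24.2%, 12.6% and 26.3% in Blebb. (SD 7.36). The mean of Blebb. was 5.69 percentage points above that of MS and 5.03 above that of CTL. By two-sided exact permutation tests, p was 0.9 for MS against CTL and 0.3 for Blebb. against either other group, where 3 libraries against 3 cannot go below 0.1. The sign of the difference between MS and CTL turned without MS replicate 3 (1.50 percentage points) or CTL replicate 3 (1.80 percentage points) from -0.66 with all libraries.

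**Figure D3:**
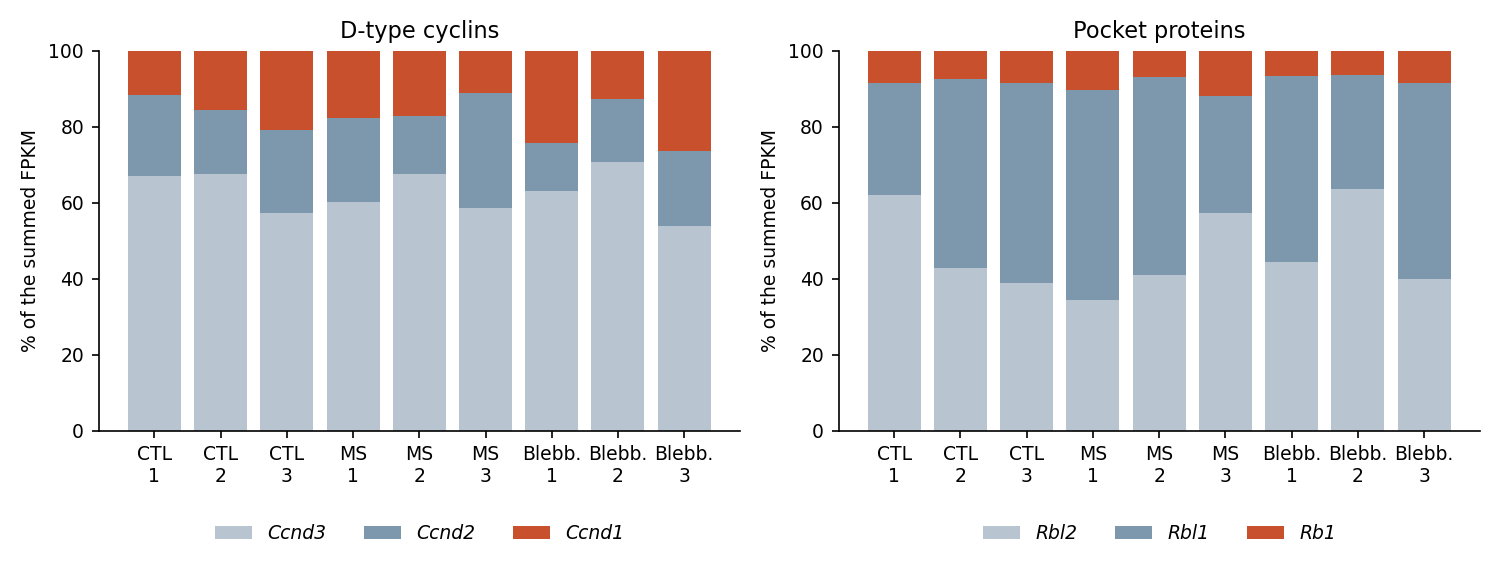
Composition of the D-type cyclins (left) and of the pocket proteins (right) in each library, as percent of the summed FPKM of the 3 genes. *Ccnd3* is the largest part of the cyclins in every library, and *Ccnd1* reaches its highest shares, 24.2% and 26.3%, in Blebb. replicates 1 and 3.

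*Cdk4*, the kinase that the D-type cyclins activate, had the highest mean of the 10 genes and was the steadiest. It was at 212, 238 and 241 FPKM in CTL, 236, 243 and 202 FPKM in MS and 265, 212 and 215 FPKM in Blebb. The groups overlapped, the means were 231 ± 16.1, 227 ± 21.9 and 231 ± 29.9 FPKM (SD, n = 3), and the highest library was 1.31 times the lowest. Its change in MS against CTL was -0.024 on the log2 scale (SE 0.13) with a 95% confidence interval from -0.33 to 0.28. *Cdk6*, its close relative, was at 0.497, 1.20 and 1.16 FPKM in CTL, 1.54, 0.702 and 0.637 FPKM in MS and 0.895, 0.431 and 1.56 FPKM in Blebb. With a mean of 0.957 FPKM it was under the minimum of the fit, and p was 1.0 in each of the 3 comparisons by an exact permutation test (two-sided). *Cdk4* therefore accounted for 99.3% to 99.8% of the summed RNA of the 2 kinases, between 138 and 491 times the level of *Cdk6*. The share gave p = 1.0 in each comparison by the exact permutation test.

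*Rb1*, which encodes the retinoblastoma protein, was at a low level, with 1.11, 1.45 and 1.78 FPKM in CTL, 2.41, 0.955 and 2.35 FPKM in MS and 0.832, 0.748 and 1.70 FPKM in Blebb. MS held the highest pair of values and also a library below all of CTL, and the groups overlapped. The means were 1.45 ± 0.331, 1.91 ± 0.823 and 1.09 ± 0.527 FPKM (SD, n = 3). The log2 fold change was 0.21 (SE 0.27) for MS against CTL and -0.46 for Blebb. against MS (interval -1.06 to 0.15, adjusted p = 0.897, limma), on a scale that understates the change of a gene near the pseudocount of 1. At a pseudocount of 0.1, Blebb. was at -0.73 against MS and at -0.44 against CTL (-0.24 at a pseudocount of 1). Leaving out 1 library moved the change in Blebb. against MS from -0.32 (without MS replicate 1) to -0.72 (without MS replicate 2), and that in MS against CTL from 0.074 to 0.48 without the same 2 libraries. The unadjusted p for Blebb. against MS was 0.017 without MS replicate 2 and 0.045 without Blebb. replicate 3, with adjusted p of 0.747 and 0.450 (limma), in fits where 598 and 934 of 10109 genes had an unadjusted p under 0.05, and it was between 0.123 and 0.321 without any other library. After the trend with GC content was taken out of each library, Blebb. against MS was -0.14 and MS against CTL was 0.012. The GC content of *Rb1* is 41.2%, the lowest of the 10 genes. Among the pocket proteins, which share the E2F-binding role, *Rb1* took 6.30% to 11.9% of the summed RNA and the rest was *Rbl1* (mean 7.86 FPKM) and *Rbl2* (mean 7.87 FPKM). *Rbl2* was above *Rbl1* in the 3 lowest-scoring libraries, at 57.4% to 63.6% of the sum, and was at 34.4% to 44.5% in the other 6.

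Ordered by their means over the 9 libraries, the 10 genes ran from *Cdk4* (229 FPKM) and *Ccnd3* (209) through *Ccnd1* (60.5) and *Mtap* (59.4), *Cdkn2c* (26.6) and *Cdkn1b* (24.2) to *Rb1* (1.48), *Cdk6* (0.957) and the pair at 0. *Cdk4* was above *Ccnd3* in 8 of 9 libraries, *Ccnd1* above *Mtap* in 3 of 9, *Cdkn2c* above *Cdkn1b* in 6 of 9 and *Rb1* above *Cdk6* in 8 of 9, and in these 4 pairs the ranges overlapped. *Ccnd3* and *Ccnd1*, *Mtap* and *Cdkn2c*, and *Cdkn1b* and *Rb1* did not overlap in range. Several of these genes share exon bases with a gene on the opposite strand, and whether the counting used strand is not given in the sources used here. *Ccnd1* shares 23.4% of its exon bases with *LTO1* (4.76 to 6.07 FPKM), *Cdk4* 19.7% with *Tspan31* (78.2 to 114 FPKM), *Rb1* 8.11% with *Rcbtb2* (4.26 to 5.82 FPKM) and *Ccnd3* 4.11% with *Bysl* (21.5 to 30.3 FPKM), so the levels of these 4 are uncertain by whatever part of the partner's reads was counted on them.

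Across the fit, 0 of the 7 genes tested had an adjusted p under 0.05 in MS against CTL, Blebb. against MS or Blebb. against CTL (limma). The same was true of all 10109 genes tested, with 0% called in each comparison. At an unadjusted p under 0.05 the count was also 0 of 7 in each, against 0.158% of all genes in MS against CTL, 1.25% in Blebb. against MS and 0.089% in Blebb. against CTL. For 0 of the 7 genes did the libraries of 1 group all lie above those of the other, which was so for 3.17%, 3.73% and 2.08% of all genes. The median log2 fold change of the 7 genes was -0.024, 0.019 and 0.042 in the 3 comparisons, beside -0.0018, -0.0059 and -0.013 over all genes tested. Each pair of comparisons shares the libraries of 1 group, so they are not independent of each other. The absence of calls does not show that levels were equal, since the intervals of *Ccnd1* spanned more than 2 log2 units.

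**Figure D4:**
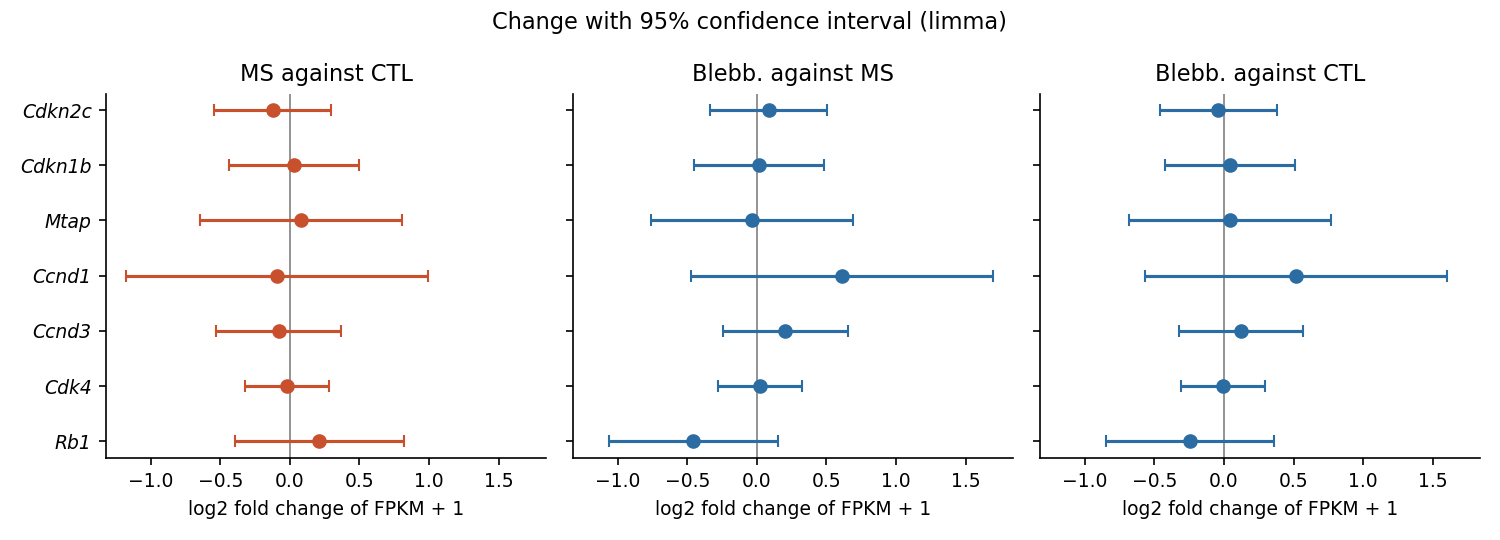
Log2 fold change of FPKM + 1 with its 95% confidence interval (limma) for the 7 genes tested in the 3 comparisons. Every interval includes 0, that of *Cdk4* is the narrowest and that of *Ccnd1* the widest.

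The 5 genes *Cdkn2c*, *Cdkn1b*, *Mtap*, *Ccnd1* and *Cdk4* had their 3 lowest values in CTL replicate 1, MS replicate 3 and Blebb. replicate 2, the lowest-scoring libraries. This held for 5 of 7 genes (71.4%), for 19 of 40 further genes of the pathway (47.5%) and for 16.1% of all genes tested, while 15.8% of all genes had their 3 highest values there. The count is a description and was not tested, because the libraries were singled out on the same values. Without these 3 libraries, the 7 genes had log2 fold changes from -0.24 (*Cdkn2c*) to -0.0011 (*Cdk4*) in MS against CTL, from -0.21 (*Rb1*) to 0.75 (*Ccnd1*) in Blebb. against MS and from -0.23 (*Rb1*) to 0.62 (*Ccnd1*) in Blebb. against CTL.

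The list of other G1 genes held 42 symbols, of which 40 were tested. *Cdkn1c* was under the minimum, and *Skp1* is not listed under that symbol. For 0 of 40 was the adjusted p or the unadjusted p under 0.05 in any comparison (limma) with all 9 libraries. Without the 3 lowest-scoring libraries an unadjusted p was under 0.05 for *Cdk2* in MS against CTL, *Cdk2* and *Myc* in Blebb. against MS and *Cdkn1a* in Blebb. against CTL, and without Blebb. replicate 3 for *Cul1* and *Mdm2* in Blebb. against MS, with no adjusted p under 0.05. In MS against CTL 24 of 40 log2 fold changes were above 0 with a median of 0.040, in Blebb. against MS 16 of 40 with a median of -0.067, and in Blebb. against CTL 19 of 40 with a median of -0.029. The groups did not overlap for 1 gene in MS against CTL, *Ambra1* (a substrate receptor for cyclin D degradation, lower in MS), for 0 in Blebb. against MS, and for 1 in Blebb. against CTL, *Rbl2* (lower in Blebb.). Both counts are near the background shares given above.

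By role, *Ccnd2* had the highest mean of the other cyclins at 64.0 FPKM and *Ccne2* the lowest at 4.55 FPKM, with a range over the libraries from 0.403 to 9.83 FPKM. Of the kinases and their activators, *Cdk2* was highest at 184 FPKM and *Mnat1*, a subunit of the CDK-activating kinase, lowest at 6.56 FPKM. *Cdk2* shares 34 exon bases with *Pmel* on the opposite strand, a pigment gene at 2079 to 6318 FPKM, and its level is uncertain for this reason. Among the E2F and DP factors, the DP partner *Tfdp1* had a mean of 50.4 FPKM and the repressor *E2f7* 3.04 FPKM. Among genes of cyclin and p27 turnover, *Cks1b*, the SKP2 cofactor, had 85.2 FPKM and *Fbxw7*, the receptor for cyclin E, 1.19 FPKM. Upstream of cyclin D, *Ctnnb1* (beta-catenin) was at 264 FPKM and *Myc* at 23.1 FPKM. On the ARF side, *Npm1*, which binds ARF in the nucleolus, had the highest mean at 156 FPKM and *Cdkn2aip*, an ARF-binding protein gene, the lowest at 1.61 FPKM. The RNAs of the partners of ARF were thus measured in every library in which *Cdkn2a* itself was at 0.

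**Figure D5:**
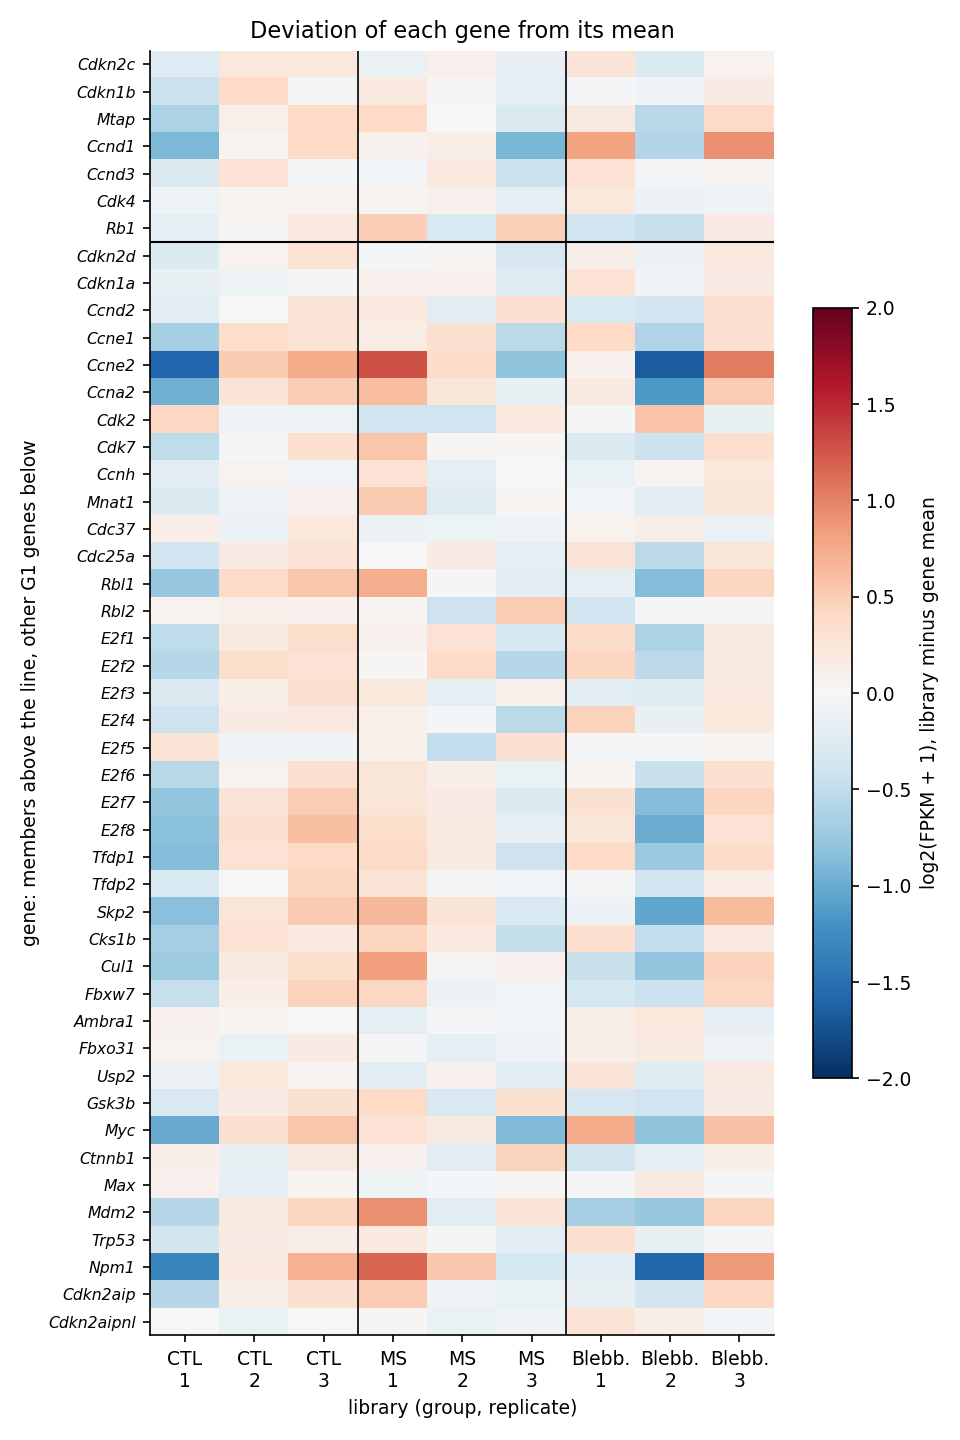
Deviation of log2(FPKM + 1) from the gene's mean in the 9 libraries (red above, blue below) for the 7 genes tested (above the line) and the 40 other G1 genes. The blue columns are CTL replicate 1, MS replicate 3 for a smaller set of genes, and Blebb. replicate 2, and *Cdk2* is higher there.

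The genes most like 4 of the members over the 9 libraries were found by the root mean square (RMS) difference of centered log2(FPKM + 1), among genes that averaged 5 FPKM or more. For *Ccnd1* they were *Nppb* (0.18), a natriuretic peptide gene, *Myc* (0.18) and *Tnfrsf12a* (0.22), the receptor of TWEAK, where the RMS deviation of *Ccnd1* from its own mean was 0.64 and the median difference over 7003 genes was 0.66. *Myc* was at 9.90 to 35.9 FPKM. For *Cdkn1b* the nearest were *Atp5g3* (0.086), *Tfb1m* (0.092) and *Smim11* (0.093), for *Cdk4* they were *Emc8*, *Mrps15* and *Tfip11* (0.041 to 0.042), and for *Rb1* they were *Cog5* (0.046), *Thumpd1* (0.053) and *Copb1* (0.069). With a mean of 1.48 FPKM, *Rb1* is near the pseudocount of 1, so this scale understates its deviations beside those of genes at 5 FPKM or more. All these genes share the 9 libraries, and with them the differences in GC response and the 3 lowest-scoring libraries, so the likeness is a description of these libraries.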

How the data were processed

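RNA was extracted with TRIzol and libraries were made with a SMARTer kit and sequenced on an Illumina platform. The authors deposited 1 FPKM value per gene and library, scaled by gene length and mapped fragments. In CTL replicate 1 the value column carries a sample name as its heading and was read as FPKM. The labels name GRCm38 (mm10), and the aligner and counting program are not given in the sources used here. Low values had no common step (at most 2.90% of ratios in a bin of 0.02 on the log2 scale), so depth is unknown and no counting intervals are given.

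Values were compared as log2(FPKM + 1) for the 10109 genes that averaged 1 FPKM or more in limma 3.58.1 (R 4.3.3), with the 3 groups in 1 fit, a mean-variance trend, two-sided tests and a threshold of 0.05 after Benjamini-Hochberg adjustment. The limma fit was tested on simulated data with noise drawn independently for each gene and library. *Cdk6* and shares were compared by exact permutation. All 10 members were named, with the highest and lowest gene of each pathway class and the 3 most alike. The members and lists, and the 3 libraries left out together, were chosen with earlier results of these data known. GC trends were removed by loess (span 0.5) for the 9663 genes with a GC content (95.6%). Coordinates are from GENCODE M21 and promoter windows from RefSeq, both on GRCm38. Figures used matplotlib 3.10.9.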

Additional observations from a re-analysis of the deposited data

How the results depend on the processing

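The alternatives were median-of-ratios factors, a pseudocount of 0.1, a minimum mean of 5 FPKM (which leaves out *Rb1*), no minimum, the replicate number as a block, the GC trend removed, the 6 libraries without CTL replicate 1, MS replicate 3 and Blebb. replicate 2, and each library left out. No member had an adjusted p under 0.05 under any of them (limma). At an unadjusted p under 0.05 the count rose from 0 to 1 with the 6 libraries in Blebb. against MS and in Blebb. against CTL, *Ccnd1* in both, where 111 and 39 of 10109 genes passed and where the libraries left out hold its lowest value in each group. Leaving out 1 library gave counts from 0 to 1, with *Rb1* (without MS replicate 2 or Blebb. replicate 3) and *Ccnd1* (without Blebb. replicate 2) in Blebb. against MS and *Ccnd1* (without Blebb. replicate 2) in Blebb. against CTL. In these fits 598, 934, 61 and 18 of 10109 genes passed, in that order. Over all genes, leaving out MS replicate 2 gave 1 call in MS against CTL and 1 in Blebb. against MS.

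Correlations of deviations between same-numbered libraries ran from -0.78 to 0.84, which does not settle whether the replicate numbers pair the samples. With the replicate block 0 members were called in each comparison, and the change of *Ccnd1* in Blebb. against MS had an adjusted p of 0.949 (limma).

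Of 144 log2 fold changes under the alternatives other than leaving out 1 library, 129 kept their direction and 15 turned, from values between -0.080 and 0.21. With the GC trend removed, MS against CTL was -0.13 for *Cdkn1b*, -0.014 for *Mtap*, 0.0093 for *Ccnd3* and 0.035 for *Cdk4*, and Blebb. against MS was -0.053 for *Cdkn2c*, 0.16 for *Mtap* and -0.059 for *Cdk4*. With the 6 libraries, MS against CTL was -0.072 for *Cdkn1b*, -0.052 for *Mtap* and -0.015 for *Rb1*, Blebb. against MS was -0.049 for *Cdkn1b*, 0.085 for *Mtap* and -0.0039 for *Cdk4*, and Blebb. against CTL was -0.12 for *Cdkn1b*. With median-of-ratios factors *Cdk4* was at 0.028 in Blebb. against CTL. The cause was not tested.

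With 1 library left out, 157 of 189 kept their direction. The ranges that crossed 0 were, in MS against CTL, -0.18 to 0.24 for *Cdkn1b*, -0.21 to 0.30 for *Mtap*, -0.47 to 0.25 for *Ccnd1*, -0.23 to 0.088 for *Ccnd3* and -0.083 to 0.058 for *Cdk4*. In Blebb. against MS they were -0.035 to 0.23 for *Cdkn2c*, -0.090 to 0.11 for *Cdkn1b*, -0.23 to 0.25 for *Mtap* and -0.085 to 0.078 for *Cdk4*. In Blebb. against CTL they were -0.20 to 0.10 for *Cdkn2c*, -0.16 to 0.25 for *Cdkn1b*, -0.25 to 0.33 for *Mtap*, -0.012 to 0.27 for *Ccnd3* and -0.11 to 0.054 for *Cdk4*. The difference in the share of *Ccnd1* lay between -2.89 and 1.80 percentage points in MS against CTL, 3.07 and 9.90 in Blebb. against MS and 2.42 and 9.24 in Blebb. against CTL, and that in the share of *Cdk4* between -0.077 and 0.10, -0.12 and 0.15, and -0.12 and 0.13. With 3 libraries a group and unknown depth, the spread between libraries limits what could be called.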
